A study of Macaca fascicularis with 21 samples.

Results

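The 35 genes described here encode the glucose transporters, the enzymes of glycolysis, the lactate exporter and the subunits, regulators and common targets of the hypoxia-inducible factors (HIF). They were listed by name: 27 of the 35 were row names of the count table, 7 more (PFKFB3, ALDOA, ALDOC, PGAM1, LDHB, EGLN3 and HIF1A) were stored under numbered identifiers and found through RefSeq, and no row matched VHL. The 34 measured genes are among 30792 genes in the table. PKM, the pyruvate kinase of most proliferating cells, held 11 counts over all cells and was never testable, and LDHA held 2809. Reads of these genes may be split with near-identical copies, which was not tested.

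The data are single-cell RNA-seq libraries of cynomolgus monkey (Macaca fascicularis) embryos grown in vitro from the blastocyst stage, 1 embryo to a chamber on Matrigel, a basement membrane extract, in air with added carbon dioxide with serum raised over time. No genotype, treatment or oxygen level other than air is labelled, so the groups differ by day: 2, 5, 3, 4, 4 and 3 embryos at days 11, 12, 13, 14, 16 and 17, with 1453 cells in all. The zona had been removed, the implantation site was dissected with extra-embryonic cells taken away, and single cells were picked by hand, so numbers of cells per type describe the picking. The day of 16 embryos is labelled as a developmental stage and that of 5, among them 2 of the 3 day-17 embryos, as a culture stage; the labels do not say whether these scales match.

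Glycolysis splits glucose into pyruvate and yields ATP without oxygen, and lactate dehydrogenase and the exporter SLC16A3 carry off its end product. When oxygen is scarce, HIF alpha subunits (HIF1A, EPAS1) escape prolyl hydroxylation by EGLN enzymes and VHL-dependent degradation, and raise transcription of glucose transporters, most glycolytic enzymes, and genes such as VEGFA, ADM, NDRG1 and ANKRD37. HIF alpha subunits are controlled mainly at the protein level, so their mRNA does not report the activity of the pathway, and several of the same enzymes also respond to growth signals.

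Counts were summed per embryo and annotated cell family with at least 5 cells: epiblast (EPI), gastrulating cells (Gast), amnion (AM), primordial germ cells (PGC), trophectoderm and derivatives (TE), extra-embryonic mesenchyme (EXMC) and visceral or yolk-sac endoderm (VE/YE). The submitters assigned these types from the same expression values, and the EPI and Gast sums carry an early annotation up to day 14 and a late one from day 16, and the AM sums an early one at day 12 and late ones at day 16, so day and annotation cannot be told apart there. Levels below are CPM, counts scaled to the size of the summed library, in embryo order. Changes are log2 ± standard error from edgeR's quasi-likelihood test, with p adjusted over all genes tested and called under 0.05. In a sum over cells, fewer cells expressing a gene and less RNA per cell cannot be told apart. Libraries are from transcript 3' ends, and levels are compared between embryos, never between genes.

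Embryos held 22 to 88 cells and 2540816 to 11857191 counts. In EXMC the median number of genes detected per cell was 5342 to 6935 at day 14, 4106 to 5629.5 at day 16 and 5649 to 7170 at day 17 over embryos. The sums of EXMC carried their own 8 markers at every day (4881 to 17468, 15164 to 24490 and 12720 to 15978 CPM in total at days 14, 16 and 17), and blood markers stayed at or below 60.7 CPM, with HBZ and GATA1 at 0 on all 3 days. The TE family held 8877 to 20254 CPM of its own 7 measured markers at day 14 and 841 to 1259 at day 17.

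The share of all counts taken by the 34 genes was highest at day 16 in each family that had sums at day 16 and on another day. Over all cells GAPDH, ENO1, TPI1, SLC2A1 and PGK1 held 101555 to 320707 counts each and every other member at most 31985. The share therefore mainly follows these genes and says little about the members with few counts. In EXMC the share was 0.659 to 0.705% at day 14, 1.02 to 1.498% at day 16 and 0.615 to 0.714% at day 17. EPI ran from 0.576 to 0.586% at day 14 through 0.987 to 1.59% at day 16 to 0.827 to 0.932% at day 17. In VE/YE the 4 embryos of days 11 to 13 held 0.453 to 0.655%, the 4 of day 16 held 1.22 to 1.76%, and the single day-17 sum held 0.498%. The day-16 sums of all families come from the same 4 embryos, so the families are not independent of each other at that day. The families' day-16 shares did not overlap those of any other day, except PGC, which had no other day. Embryo 4 had the lowest share of the day-16 embryos in all 6 families, at 0.987% in EPI, 1.018% in EXMC, 1.045% in Gast, 1.104% in AM, 1.215% in VE/YE and 0.776% in PGC, where its sum held only 99053 counts. Without this embryo 9 members were called in EXMC from day 14 to day 16 and 7 to day 17, 7 and 13 in EPI, and 11 in Gast, against the 10, 7, 8, 11 and 7 with it that are described below.

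**Figure D1:**
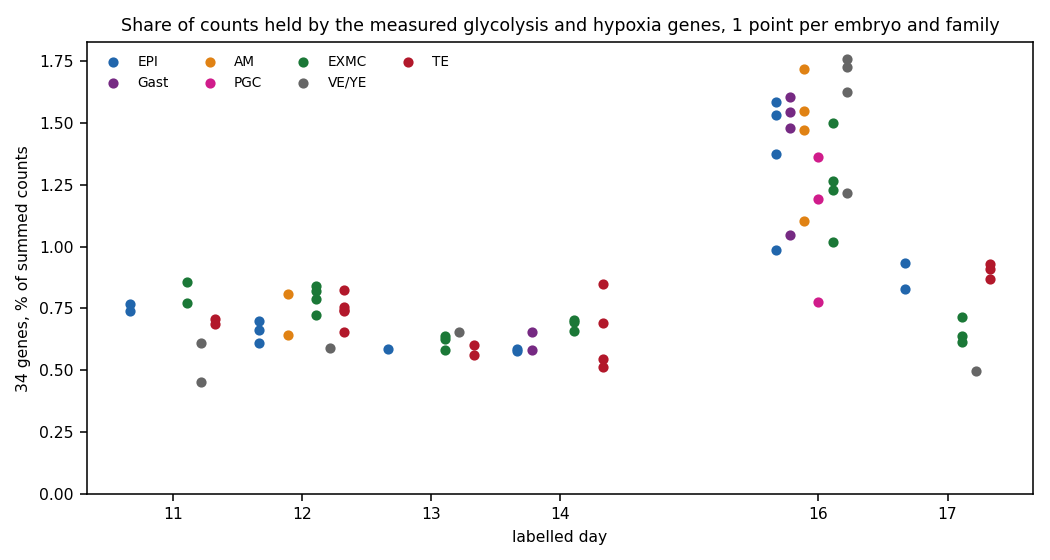
Percent of summed counts held by the 34 measured glycolysis and hypoxia genes (vertical axis, from 0) against the labelled day (horizontal axis), with 1 point per embryo and colour for the cell family. The day-16 points of EXMC lie between 1.02 and 1.498%, above the 0.615 to 0.714% of day 17 and the 0.659 to 0.705% of day 14.

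In extra-embryonic mesenchyme, the tissue that forms the connective lining around the early embryo, 10 of 32 tested genes rose from day 14 (3 embryos) to day 16 (4 embryos) and none fell. Of all 14275 genes tested there, 3.78% were called and 2.25% rose; the 539 called genes became 135 to 555 when 1 embryo was left out, so this share is itself uncertain. The median change of the 32 was 1.59 on the log2 scale against 0.19 over all genes. Among the 25 tested members that are row names in the table, 10 rose, with a median of 1.68. From day 16 to day 17 (3 embryos), 7 of the 32 fell and none rose, where 1.72% of all genes were called and 0.813% fell, and the median was -1.06 against -0.06. Both comparisons use the same day-16 sums, so they are not independent, and each gene is given below with its levels on all 3 days.

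Of the genes for glucose uptake and its first phosphorylation, SLC2A1, the widely expressed glucose transporter GLUT1, was at 388, 344 and 287 CPM in the 3 day-14 embryos, 977, 1256, 1249.7 and 624 in the 4 day-16 embryos and 721, 373 and 307 in the 3 day-17 embryos. All day-16 values were above day 14, while the first day-17 embryo lay within the day-16 range; the rise was 1.71 ± 0.33 (adjusted p = 0.00364) and the later change -1.19 ± 0.32 (adjusted p = 0.0496) by edgeR. SLC2A3, a high-affinity transporter, was near the detection limit, at 2.04, 0.298 and 1.18, 1.12, 1.18, 3.07 and 15.7 and 0.993, 0.78 and 0.407 CPM on the 3 days, and was not tested in EXMC. HK2, the inducible hexokinase that phosphorylates glucose, stood at 22.7, 16.3 and 16.5, then 87.6, 126, 117 and 106, then 53, 54.2 and 31.4 CPM. Its 3 days did not overlap, and it rose by 2.67 ± 0.47 (adjusted p = 0.00152); the later change of -1.30 ± 0.43 (adjusted p = 0.124) was not called. HK1, the constitutive hexokinase, was not called, with -0.19 ± 0.31 from day 14 to day 16.

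GPI, which interconverts the hexose phosphates, was at 227, 214 and 189.9, 388, 389, 387 and 323 and 281, 229 and 196 CPM on days 14, 16 and 17. Day 16 lay apart from day 14, but 0.94 ± 0.28 (adjusted p = 0.0525) just missed the threshold. PFKFB4, a bifunctional enzyme that sets the level of the main activator of phosphofructokinase, was at 24.2, 20.3 and 8.26 CPM at day 14. It reached 144, 160.3, 118 and 364 CPM at day 16 and was back at 12.1, 33.5 and 16.2 at day 17. PFKFB4 rose by 3.58 ± 0.58 (adjusted p = 0.000962) and then changed by -3.34 ± 0.57 (adjusted p = 0.0012), with all day-16 embryos above every other.

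Further down the pathway, TPI1, which interconverts the triose phosphates, was at 1342, 1332 and 1229 CPM at day 14, 3020.0, 3361, 2261 and 1831 at day 16 and 787, 661 and 848 at day 17. Day 17 lay below day 14 as well as below day 16, and TPI1 rose by 1.12 ± 0.26 (adjusted p = 0.0169) and then changed by -1.83 ± 0.27 (adjusted p = 0.000267). GAPDH, the oxidising step and often used as a reference gene, was at 2031, 1781 and 1658, 3449, 3793, 3129.7 and 3996 and 1935, 1997 and 2035 CPM. GAPDH rose by 1.10 ± 0.23 (adjusted p = 0.00674) and then changed by -0.92 ± 0.23 (adjusted p = 0.0332), and day 16 overlapped neither day. PGK1, the first ATP-yielding step, was at 594, 591 and 672, 1274, 1411, 1302 and 1026 and 507, 466 and 452 CPM. Its day-16 values were again above all others, with changes of 1.13 ± 0.25 (adjusted p = 0.0113) and -1.46 ± 0.25 (adjusted p = 0.00141).

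ENO2, the enolase known from neurons, was all but absent from day-14 EXMC, at 0, 0.149 and 0 CPM or 1 count over 3 embryos, against 49.4, 11.8, 43.9 and 11.6 CPM or 222 counts at day 16. The ratio was 355 with an exact counting interval of 63.0 to 14069 (edgeR adjusted p = 0.00338), and day 17 stood at 5.16, 9.36 and 0.679 CPM. The counting interval of ENO2 uses counts summed over embryos and leaves out the spread between them. ENO1, the enolase present in most cells, did not pass (0.25 ± 0.26). The lactate dehydrogenase subunits did not pass either: LDHA was at 14.3, 23.3 and 24.8, 48.9, 77.2, 72.9 and 42.1 and 1.19, 1.56 and 23.1 CPM (1.66 ± 0.88 (adjusted p = 0.293), then -2.83 ± 0.92 (adjusted p = 0.113)). LDHB was at 34.1, 42.5 and 41.3, 58.4, 41.2, 57.1 and 19 and 4.37, 11.7 and 47.5 CPM, with day 14 within the day-16 range. SLC16A3, the lactate exporter MCT4, rose by 1.77 ± 0.41 (adjusted p = 0.014) from 77, 64 and 89.6 to 202, 186, 137 and 425 CPM. SLC16A3 then fell to 53, 44.5 and 94.5 CPM (-1.97 ± 0.41 (adjusted p = 0.00712)), and day 16 overlapped neither neighbour. PDK1, which holds pyruvate back from mitochondria, was at 12.8, 38.6 and 81.4, 215, 170.3, 97.4 and 61.1 and 44.3, 58.9 and 28.2 CPM and missed the threshold both times (1.76 ± 0.53 (adjusted p = 0.0546) and -1.68 ± 0.52 (adjusted p = 0.0915)).

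Among the HIF subunits, HIF1A was at 112, 129.8 and 76.7 CPM at day 14, 66.9, 54.2, 72 and 71.9 at day 16 and 119, 100.2 and 85.4 at day 17. Its day-16 values lay below every value of both other days, the opposite order to the called enzymes, but neither change was called (-0.56 ± 0.36 (adjusted p = 0.409) and 0.55 ± 0.36 (adjusted p = 0.512)). Of all genes, 10.2% lay wholly below day 14 at day 16 and 9.49% wholly above day 16 at day 17, so such positions were not rare. EPAS1, the alpha subunit of another HIF complex, was at 56, 44.9 and 8.26, 17.4, 30.6, 30.3 and 24 and 46.9, 41.7 and 24.6 CPM, with overlapping days and no call.

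ANKRD37, a small ankyrin-repeat target of HIF1A, was at 3.5, 3.88 and 0 CPM at day 14, 87.6, 71.3, 126 and 53.7 at day 16 and 5.36, 2.34 and 0.95 at day 17. All day-16 embryos stood far above those of days 14 and 17, and the gene rose by 4.97 ± 0.90 (adjusted p = 0.00174) and then changed by -4.91 ± 0.88 (adjusted p = 0.00201). NDRG1, a stress-responsive gene, was at 39.1, 27.9 and 16.5, 25.8, 119.6, 79.9 and 229 and 84, 173 and 96.2 CPM. NDRG1 rose by 2.15 ± 0.55 (adjusted p = 0.0255), though the first day-16 embryo lay within the day-14 range, and its day-17 values lay within the day-16 range (-0.03 ± 0.50 (adjusted p = 0.988)). STC1, a secreted glycoprotein, was at 18.7, 45.9 and 0, 70.2, 147, 274 and 78.5 and 25.6, 25.7 and 15.2 CPM; day 16 lay above both, with 2.77 ± 0.80 (adjusted p = 0.0517). ADM, the vasodilator adrenomedullin, was at 2.62, 7.46 and 8.26, 106, 203, 150.1 and 19.8 and 23, 0.78 and 3.94 CPM and did not pass (4.43 ± 1.38 (adjusted p = 0.0882)). VEGFA, the main endothelial growth factor and a textbook HIF target, was at 35.3, 46.4 and 27.1, 53.9, 32.4, 64.1 and 44.6 and 53.8, 60.4 and 51.8 CPM. Its days overlapped, and 0.54 ± 0.49 (adjusted p = 0.583) was not called.

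Counted by position alone, 18 of the 32 genes had every day-16 EXMC sum above every day-14 sum, against 8.08% of all genes, and HIF1A was the only one with every sum below (10.2% of all genes). From day 16 to day 17, 14 of 32 lay wholly below (5.97% of all genes) and HIF1A alone wholly above (9.49%). In the direction of HIF1A the members' share was thus below that of all genes both times. Between days 14 and 17, 0 of 32 were called by edgeR, where 0.182% of all genes were; 6 had an unadjusted p under 0.05 and DESeq2 called 2. NDRG1 had a day-17 minus day-14 value of 2.12 ± 0.56 (adjusted p = 0.128).

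**Figure D2:**
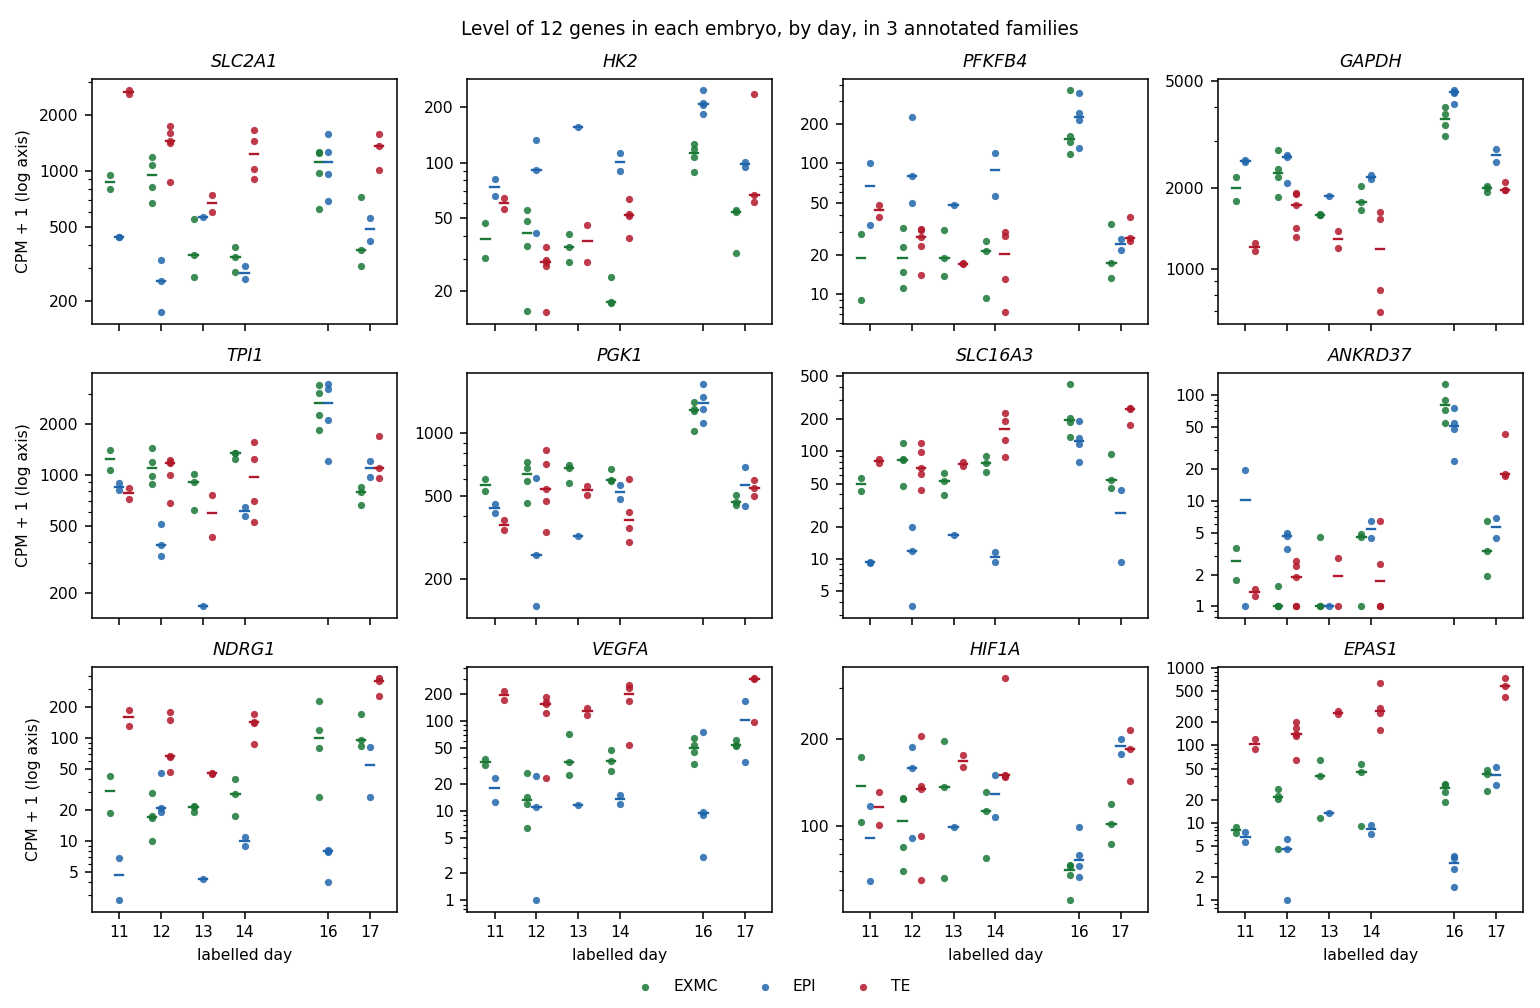
CPM plus 1 on a log axis against the labelled day for 12 genes, with 1 point per embryo, a bar at the median, and colour for EXMC, EPI and TE (TE has no day-16 sum). SLC2A1, HK2, PFKFB4, GAPDH, TPI1, PGK1, SLC16A3 and ANKRD37 have their highest EXMC medians from day 14 on at day 16. HIF1A has its lowest there, with no call.

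Some EXMC calls rested on few embryos. SLC2A1, HK2, PFKFB4, ANKRD37 and ENO2 kept the day-14 to day-16 call without each embryo in turn. TPI1 lost it without day-14 embryo 1, 3 or 4 or day-16 embryo 2, NDRG1 without day-14 embryo 1, 3 or 4 or day-16 embryo 4, SLC16A3 without day-14 embryo 1 or 3 or day-16 embryo 4, PGK1 without day-14 embryo 1 or 3, and GAPDH without day-14 embryo 3 or 4. The number of members called was 6 without day-14 embryo 1, also 6 without day-14 embryo 3, and 6 to 11 over all 10 embryos left out. For the fall to day 17, SLC2A1 lost its call in 7 of 10 such fits, GAPDH in 4 and SLC16A3 in 2, and 4 members were called without day-17 embryo 2. All genes called for that fall numbered 59 to 291 over these fits. With embryos of developmental labels alone, 1 day-17 embryo was left (the third) and 0 members were called; all genes called went from 246 to 17 in that fit. The log2 changes of the 7 members that otherwise fell were -6.45 to -0.88 there, all negative. These members were picked by a fit that holds the same embryos, so their shared sign is no separate support.

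Markers of other cell types moved with the day in EXMC. The 6 epiblast markers summed to 56.8 to 105 CPM at day 14, 417 to 788 at day 16 and 119 to 368 at day 17, and 4 of 6 rose from day 14 to day 16 (POU5F1, GDF3, DPPA4 and DNMT3B). The 8 endoderm markers summed to 20.4 to 49.5, 108 to 2185 and 8.19 to 77.5 CPM, with APOB, AFP, FOXA1 and SOX17 at 0 at day 14. The 7 trophectoderm markers went the other way, at 665 to 1636, 77.3 to 282 and 159 to 321 CPM, with CCR7 at 0 at day 16. The 14 measured immediate early and heat shock genes, which mark handling of cells, summed to 5639 to 6384, 3531 to 4705 and 4855 to 5675 CPM, and 0 of 14 were called from day 14 to day 16 by edgeR (5 with an unadjusted p under 0.05, 12 of 14 lower by sign). Their day-16 sums thus lay below both other days, and from day 16 to day 17 0 of 14 were called, 10 had an unadjusted p under 0.05 and 12 were higher by sign. Over all cells HSP90AA1, HSPA8 and HSPB1 held 158773 to 250949 counts each and every other gene of this list at most 24027. The sums therefore mainly follow these heat shock genes and say little about the immediate early genes. The part of the marker and handling-gene shifts in the results was not tested.

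In epiblast, the pluripotent layer that gives rise to the embryo proper, 8 of 33 tested genes rose from day 14 (2 embryos) to day 16 (4 embryos) and none fell, where 0.593% of all 16857 genes were called and 0.196% rose. The median change was 1.36 against 0.09 over all genes. SLC2A1 was at 307 and 261 CPM in the day-14 embryos, 1261, 1568, 957 and 685 at day 16 and 555 and 421 in the 2 day-17 embryos. The days did not overlap, with a rise of 2.06 ± 0.35 (adjusted p = 0.004) and a later -1.22 ± 0.34 (adjusted p = 0.0478). PFKP, the platelet-type phosphofructokinase, was at 8.39 and 8.53, 148, 107, 128 and 246 and 26.6 and 105 CPM and rose by 4.30 ± 0.73 (adjusted p = 0.004). ALDOC, an aldolase, was at 12.8 and 14, 157, 157, 179 and 77.6 and 11.6 and 1.98 CPM. Day 16 stood above both other days, with 3.49 ± 0.79 (adjusted p = 0.0413) and -4.45 ± 0.86 (adjusted p = 0.00487).

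TPI1 in EPI was at 572 and 641, 3429, 3199, 2110.4 and 1209 and 1206 and 967 CPM, a rise of 2.12 ± 0.35 (adjusted p = 0.00342) and then a change of -1.22 ± 0.34 (adjusted p = 0.0478). The fourth day-16 embryo was barely above the day-17 embryos. GAPDH was at 2171 and 2240.2, 4642, 4525, 4099.9 and 4566 and 2803 and 2508 CPM, with no overlap, 1.10 ± 0.21 (adjusted p = 0.0118) and -0.77 ± 0.21 (adjusted p = 0.0441). ENO1, which was not called in EXMC, passed in EPI with 1.36 ± 0.31 (adjusted p = 0.0445), from 1071 and 1084 to 3520.2, 3062, 2439 and 1394 CPM, a call lost in 7 of 8 fits without 1 embryo and under 6 of 9 other settings, scaling without the listed genes among them. SLC16A3 was at 10.6 and 8.35, 78.5, 133, 191 and 116 and 43 and 8.41 CPM, low at day 14 and high at day 16 (3.85 ± 0.79 (adjusted p = 0.019)). STC1 was at 1.73 and 0, 38.2, 35.5, 56.6 and 114 and 8.88 and 7.42 CPM, again without overlap (6.21 ± 1.39 (adjusted p = 0.0391)), but the call was lost in 7 of 8 fits without 1 embryo and with sums of at least 3 cells. ALDOC lost its call in 5 of these 8 fits and SLC16A3 in 3. PGK1 was at 479.8 and 561, 1724, 1499, 1307 and 1125 and 686 and 446 CPM, and 1.53 ± 0.42 (adjusted p = 0.149) was not called.

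**Figure D3:**
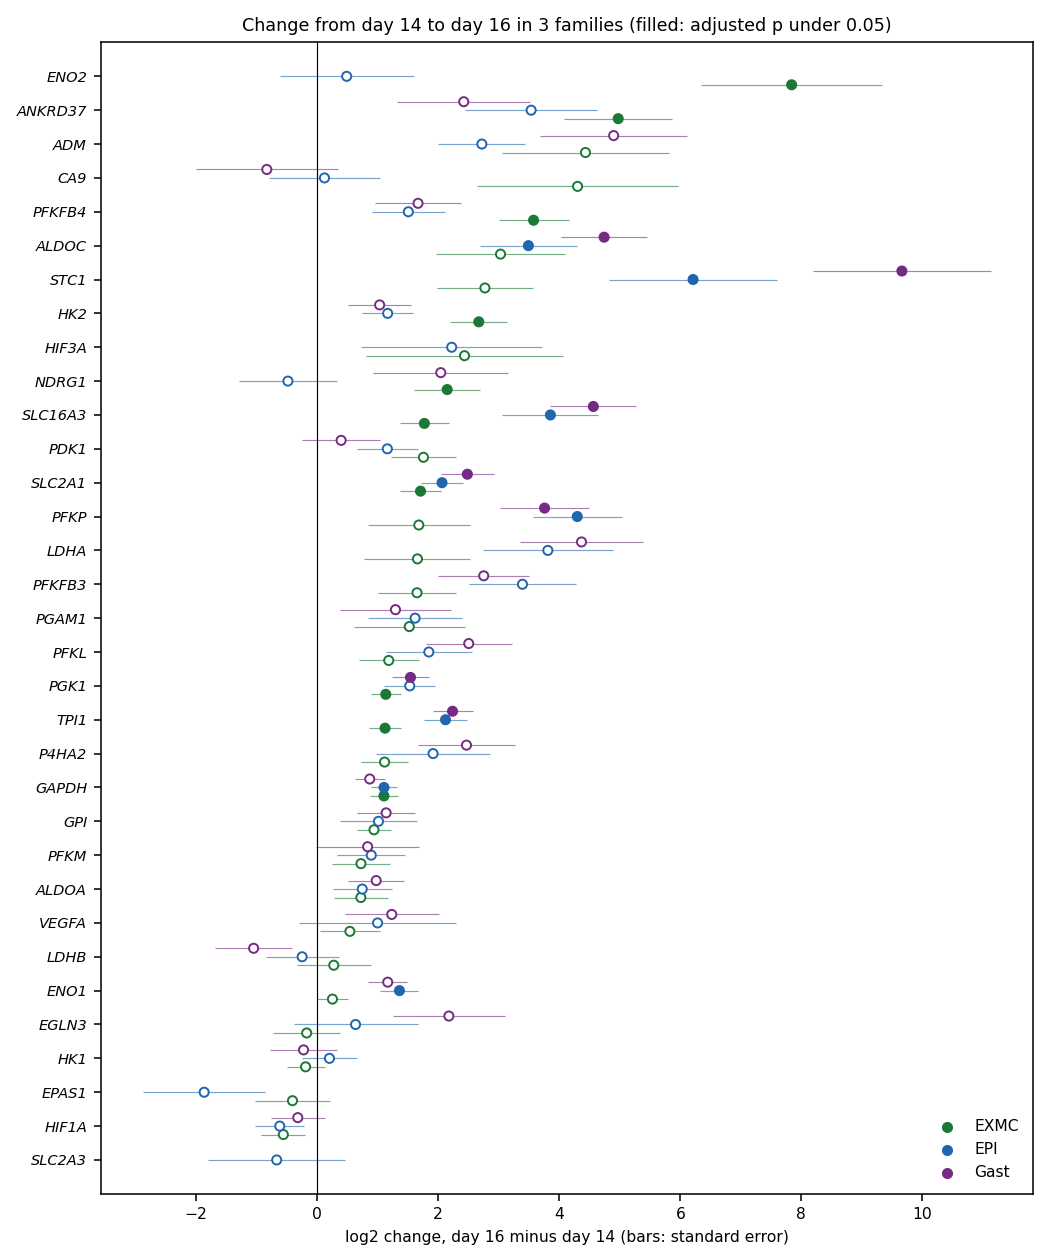
Log2 change from day 14 to day 16 (horizontal axis, bars 1 standard error) of the tested members in EXMC, EPI and Gast, filled where edgeR's adjusted p was under 0.05. SLC2A1, TPI1 and SLC16A3 are filled in all 3 families, and HIF1A lies left of 0 in each with no call. The fitted STC1 value in Gast has a day-14 group at 0 and is no measure of size.

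Between day 16 and day 17 the epiblast genes divided: 9 of 33 fell and 2 rose, where 3.12% of all genes were called, 2.34% fell and 0.777% rose. Median changes were -1.23 for the members and -0.16 for all genes. The falling genes included PGAM1, a phosphoglycerate mutase, at 100.1, 86.9, 159.9 and 47.2 and then 1.37 and 1.48 CPM (-6.07 ± 1.07 (adjusted p = 0.00249)). ADM dropped from 189.9, 212, 163 and 82.2 to 5.46 and 0.494 CPM (-5.84 ± 0.90 (adjusted p = 0.00076)), and LDHA from 69.8, 56.5, 98.6 and 15.7 to 0 and 1.98 (-5.75 ± 1.26 (adjusted p = 0.0124)). PFKFB4 was at 119.7 and 55, 131, 212, 243 and 346 and 25.3 and 20.8 CPM on the 3 days and fell to day 17 with -3.37 ± 0.69 (adjusted p = 0.00889). PDK1 was at 57 and 82.8, 165, 215, 149 and 59.9 and 32.8 and 26.2 CPM, with -2.34 ± 0.55 (adjusted p = 0.0189). For these 5 genes both day-17 embryos were below every day-16 embryo, and both embryos carry culture labels. EXMC had both labels at day 17. There PGAM1 was at 1.59 and 3.9 CPM in the culture-labelled embryos and 42.9 in the developmental one, and LDHA at 1.19 and 1.56 against 23.1. Day-14 EXMC held 19, 29.7 and 29.5 CPM of PGAM1. For ADM, PFKFB4 and PDK1 the developmental embryo was not the highest in day-17 EXMC. The part of the label in the EPI falls was not tested. SLC2A3 in EPI was at 11.4 and 10.5 and 1.88, 5.07, 3.29 and 15.7 CPM at days 14 and 16 and had 0 counts at day 17. Taken against 3 counts over the group, that is at least 10.6-fold lower than day 14 and at least 5.15-fold lower than day 16. These bounds use counts summed over embryos and leave out the spread between them, and edgeR called neither difference.

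The genes that rose in day-17 EPI were EPAS1 and NDRG1. EPAS1 was at 6.17 and 8.53 CPM at day 14, 1.56, 2.7, 2.56 and 0.507 at day 16 and 51.2 and 29.7 at day 17, a change of 4.37 ± 1.04 (adjusted p = 0.0197) after day 16. NDRG1 was at 10.1 and 7.99, 7.19, 3.04, 6.94 and 7.1 and 81.3 and 26.2 CPM (3.10 ± 0.79 (adjusted p = 0.0302)). Of these 3 days both were lowest at day 16 and highest at day 17, with no overlap. HIF1A had the same order, at 107 and 149, 71.9, 78.4, 65.3 and 97.9 and 176 and 199 CPM, without a call (-0.62 ± 0.40 (adjusted p = 0.782) and 1.23 ± 0.40 (adjusted p = 0.0886)). VEGFA ranged widely, at 10.9 and 14.2, 8.76, 8.11, 75.2 and 2.03 and 34.2 and 169.6 CPM, where day-16 embryo 3 stood far above its group. LDHB was at 63.2 and 121, 113, 74.4, 86.2 and 17.8 and 26.6 and 13.4 CPM, with overlap and no call.

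By position, 20 of 33 genes were wholly above day 14 at day 16 in EPI (7.36% of all genes), and NDRG1, HIF1A and EPAS1 wholly below (13.9%). To day 17, 20 were wholly below (15.5%), and ENO2, NDRG1, HIF1A and EPAS1 wholly above (12.8%). The shares of members wholly below at day 16 and wholly above at day 17 did not exceed those of all genes. Between days 14 and 17, where 2.12% of all genes were called, 0.267% rose and 1.86% fell, PFKP rose by 3.03 ± 0.73 (adjusted p = 0.026) and PGAM1 had -4.45 ± 1.05 (adjusted p = 0.0239). These EPI counts hang on few embryos: 0 of 33 were called from day 14 to day 16 without either day-14 embryo, and to day 17 the calls were 2 without day-17 embryo 1 and 1 without embryo 2. For the rise, 5 were called without day-16 embryo 1 and 4 without embryo 3. For the change to day 17, 7 were called without day-14 embryo 2 or day-16 embryo 1 or 2. Between days 14 and 17, 0 were called without day-14 embryo 2 or day-17 embryo 2, 1 without day-14 embryo 4 or day-17 embryo 1, and 4 without day-16 embryo 4. All genes called moved as well, to 17 to 92 from 100 for the rise and to 74 to 546 from 526 for the change to day 17. SLC2A1, TPI1 and GAPDH lost the call to day 17 in 7 of 8 such fits, and NDRG1 in 6. Both day-17 EPI embryos carry culture labels, so label and day cannot be told apart there.

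Epiblast markers in the EPI sums totalled 2355 to 2612, 2646 to 2947 and 1399 to 1402 CPM at days 14, 16 and 17, with GDF3 at 0 at day 17. Mesenchyme markers in the same sums were at 194 to 276, 236 to 732 and 743 to 987 CPM, and trophectoderm markers were at 929 to 1137, 44.4 to 404 and 83.6 to 279. Their part in the day-17 levels of EPAS1 and NDRG1, which both stood higher in EXMC than in EPI at day 16, was not tested. Of the 14 measured handling genes, 2 rose and 0 fell in EPI from day 16 to day 17, where 0.777% of all genes rose. By edgeR these were FOS (3.13 ± 0.75 (adjusted p = 0.0219)) and EGR1 (2.42 ± 0.67 (adjusted p = 0.0476)), named after their values were seen. By sign 9 of the 14 were higher and 5 lower. Their sum, which mainly follows HSP90AA1, HSPA8 and HSPB1, was 4389 to 5446 CPM at day 16 and lower at day 17, at 3687 to 3903 CPM.

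**Figure D4:**
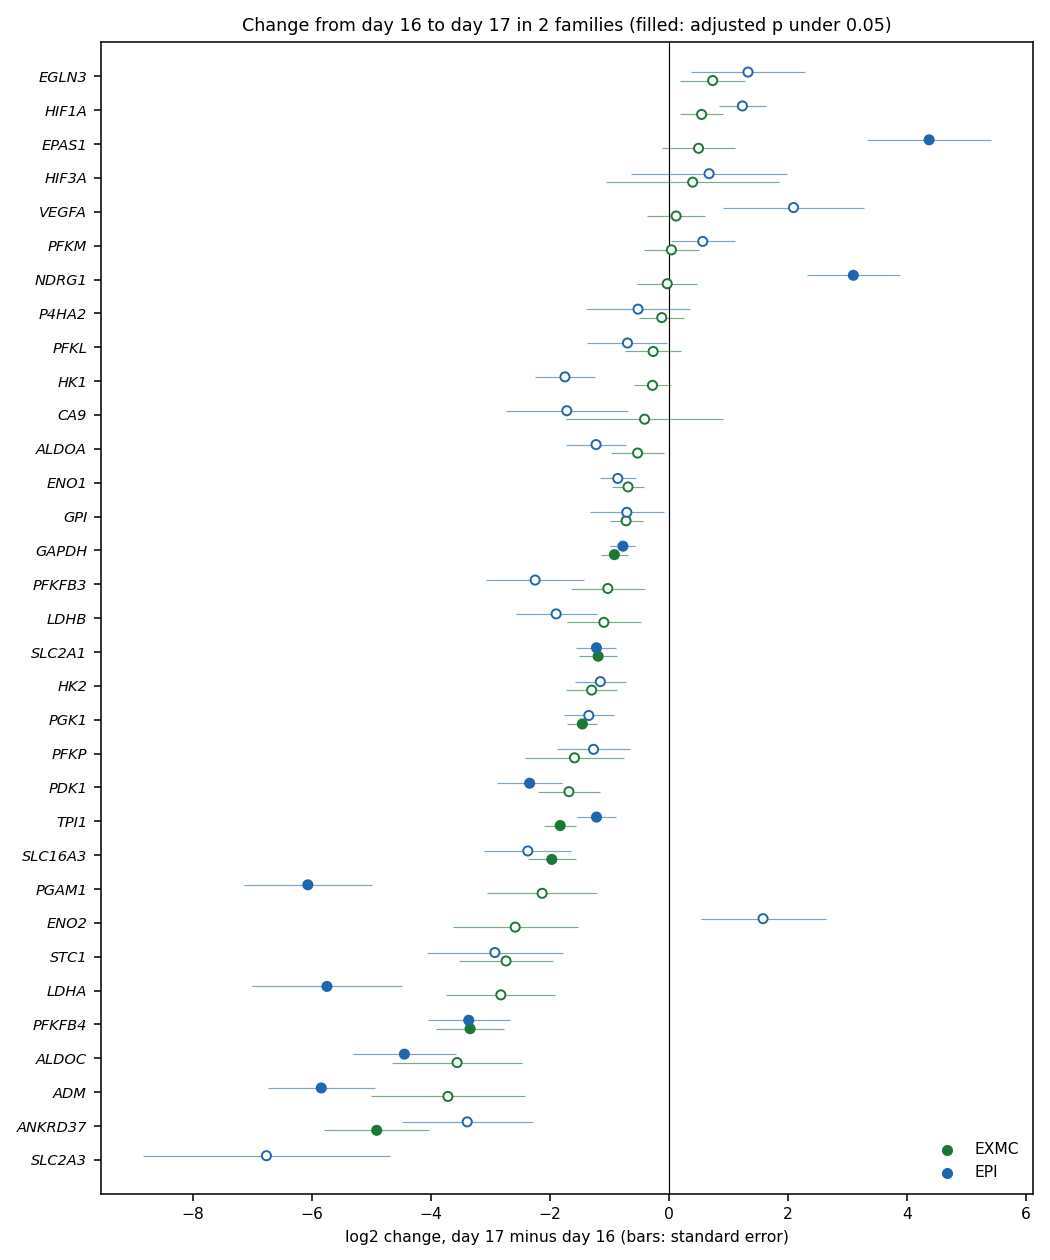
Log2 change from day 16 to day 17 (horizontal axis, bars 1 standard error) in EXMC and EPI, filled where edgeR's adjusted p was under 0.05. Most members lie left of 0, while EPAS1 and NDRG1 are filled right of 0 in EPI. The fitted SLC2A3 value in EPI has a day-17 group at 0 and is no measure of size.

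Whether the change differed between the families was tested within embryos that hold both. From day 14 to day 16 ENO1 had -1.22 ± 0.27 (adjusted p = 0.0204) for EXMC minus EPI, where the median over all genes was 0.50, the only member called of 33 (0.381% of all genes, 0.0672% with a negative value), and only 1 day-14 embryo holds both families. The call was lost without the embryo block, with sums of at least 3 cells and without day-17 embryo 1. From day 16 to day 17, 0 members were called (0.381% of all genes), with TPI1 at -0.71 ± 0.22 (adjusted p = 0.175), and 1 was called without day-16 embryo 1. The other members' differing calls between EXMC and EPI are not shown to be differences.

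Gastrulating cells, which leave the epiblast to form mesoderm and endoderm, had sums from 2 embryos at day 14 and 4 at day 16. There 7 of 29 tested genes rose and none fell (0.593% of 10288 genes called, 0.428% rose), with a median of 1.67 against 0.09. SLC2A1 went from 216 and 312 to 1270.3, 2431, 1629.7 and 753 CPM (2.48 ± 0.44 (adjusted p = 0.0234)). SLC16A3 went from 12.9 and 9.17 to 97.9, 309, 247 and 404 CPM (4.56 ± 0.71 (adjusted p = 0.00866)), and ALDOC from 7.15 and 3.33 to 131, 151, 147 and 136 (4.74 ± 0.70 (adjusted p = 0.00674)). TPI1 went from 453 and 666 to 3336, 2889, 2902 and 1727 CPM (2.24 ± 0.33 (adjusted p = 0.00674)). Every day-16 value of these genes was above both day-14 values. STC1 had 0 counts at day 14 and 553 at day 16, at 95.6, 38.8, 175 and 66.9 CPM, at least 66.3-fold higher against 3 counts over the group (edgeR adjusted p = 0.00873). The STC1 bound uses counts summed over embryos and leaves out the spread between them. PFKP (3.76 ± 0.74 (adjusted p = 0.0365)) and PGK1 (1.54 ± 0.31 (adjusted p = 0.0376)) also passed. HIF1A was at 129 and 175 and 156, 107, 118 and 117 CPM, which overlap. By position 18 of 29 lay wholly above day 14 (10.4% of all genes) and LDHB wholly below (10.4%). Without either day-14 embryo 0 members were called, without day-16 embryo 2 the count was 3, without embryo 1 or 3 it was 4, and without embryo 4 it was 11; all genes called ran from 16 to 177 over these fits. SLC2A1, PFKP and PGK1 lost the call in 5 of 6 fits and SLC16A3 in 3. Other markers moved in the same sums: the 8 mesenchyme markers summed to 139 to 370 CPM at day 14 and 754 to 3446 at day 16 (8 of 8 higher by sign, 1 called), the 6 epiblast markers to 1905 to 2010 and 515 to 1136, and the 7 trophectoderm markers to a median of 826 and then 134 to 224. Their part in the Gast changes was not tested.

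Endoderm, which lines the yolk sac, had 4 sums at days 11 to 13 and 4 at day 16, with none at day 14 and 1 at day 17. Tests were run only among days 14, 16 and 17, so its days are described without one. TPI1 was at 797 and 700.3 CPM at day 11, 706 at day 12, 1303 at day 13, 4875, 4608, 3489 and 2584 at day 16 and 612 at day 17. ANKRD37 was at 4.03 and 0, 0, 0, then 72.6, 171, 133 and 103 CPM at day 16 and 12.7 at day 17. NDRG1 was at 272, 189, 280.0 and 314 CPM at day 16, against 13.5 at day 17 and at most 60.5 before day 14. PFKFB4 was at 152, 150.0, 278 and 293 CPM at day 16, at most 33.9 before day 14 and 28.6 at day 17. For all 4 genes the day-16 embryos stood above every other sum. HIF1A was at 170.1, 120.0, 112 and 152 CPM at day 16, below the 177 to 419 of days 11 to 13, and 32.5 at day 17. In all, 17 of 33 genes were wholly above days 11 to 13 at day 16 (3.03% of all genes), and HIF1A wholly below (3.33%). Epiblast markers in the VE/YE sums totalled 433 to 696 CPM at days 11 to 13 and 498 to 2053 at day 16. Trophectoderm markers there were at 48.7 to 1895 and 247 to 317 CPM. Their part in these levels, and in the comparison with EPI at day 16 below, was not tested.

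Amnion, the membrane around the embryo, had sums of 2 embryos at day 12, all early amnion by annotation, and 4 at day 16, all late, which are described without a test. SLC2A1 was at 292 and 264 and then 2006, 3743, 2188 and 1150.4 CPM, and TPI1 at 563 and 569 and then 3364, 3522, 3056 and 1537. STC1 and LDHA had no count at day 12 and were at 76.5, 89.3, 93.9 and 23.7 and 55.1, 30.3, 88.8 and 14.2 CPM at day 16. By position 20 of 33 genes were wholly above (12.3% of all genes), and HK1 wholly below (8.91%), at 131 and 169 and then 36.6, 71.7, 50.2 and 85.4 CPM. Trophectoderm markers in these sums totalled 1294 to 1604 CPM at day 12 and 233 to 573 at day 16. Late amnion holds 2 annotations at day 16. EPAS1 was at 211 to 461 CPM in L-AM2 (4 embryos) and 14.4 to 53.8 in L-AM1 (3 embryos), and SLC2A1 at 2044 to 4039.5 and 527 to 1696, in sums of at least 3 cells; neither gene overlapped. Germ cells, with sums at day 16 alone, held 3466, 1933 and 925 CPM of TPI1, 187, 111 and 42.4 of ANKRD37 and 543, 789 and 84.8 of SLC2A1, in embryos 2, 3 and 4, so embryo 4 was lowest for each, as it was in the share of counts.

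Trophectoderm, the placental lineage, had no day-16 sum, so its days 14 (4 embryos) and 17 (3 embryos) were compared. Of 31 tested, 0 were called by edgeR, where 3.4% of all genes were; 7 had an unadjusted p under 0.05 and DESeq2 called 3. NDRG1 came nearest, at 86.7, 172, 142 and 143 and then 386, 259 and 361 CPM (1.28 ± 0.41 (adjusted p = 0.0819)), without overlap. ANKRD37 was at 5.36, 0, 1.5 and 0 and then 16, 16.8 and 41.7 CPM. By position PFKM, GAPDH, NDRG1 and ANKRD37 were wholly above day 14 (5.01% of all genes). Without day-14 embryo 3 or day-17 embryo 1 edgeR called 1 member. SLC2A1 was at 1017, 1444, 904 and 1656 CPM at day 14 and 1579, 1006 and 1352 at day 17, within one range. Trophectoderm markers in these sums totalled 8877 to 20254 CPM at day 14 and 841 to 1259 at day 17, and mesenchyme markers 151 to 777 and 611 to 1771. Their part in the TE differences was not tested.

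From day 11 to day 14 a linear trend per day was tested. In EXMC, SLC2A1 was at 794 and 946 CPM at day 11, 819, 675, 1076 and 1186 at day 12, 553, 354 and 270.3 at day 13 and 388, 344 and 287 at day 14. It fell by 0.61 ± 0.13 on the log2 scale per day (edgeR adjusted p = 0.031), the only one of 26 called (0.686% of all genes, 0.2% falling), and lost the call without day-11 embryo 2 or day-14 embryo 1, 3 or 4. In EPI 0 of 24 were called (0.0% of all genes; 1 unadjusted p under 0.05, DESeq2 0). In TE 0 of 30 were called (0.135% of all genes; 11 with an unadjusted p under 0.05, DESeq2 5), with EPAS1 at 0.61 ± 0.14 (adjusted p = 0.0733) per day, and 1 was called without day-14 embryo 2. HIF3A, a HIF subunit of variable function, was at 95.4 and 98.4 CPM in day-11 TE and at most 19.2 in any later one. EGLN3, an oxygen-sensing hydroxylase, was at 314 and 356 CPM in day-11 TE and 70.6, 101, 104 and 110.2 at day 14.

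The cell families were also compared within embryos of days 11 to 14. Against EPI in 8 embryos, TE had 10 members higher and 9 lower of 33, where 45.4% of all genes were called, 23.9% higher and 21.4% lower, and nothing particular to the members is read from these counts. Higher were EPAS1 by 4.98 ± 0.35 (adjusted p = 8.79e-09), VEGFA by 4.05 ± 0.35 (adjusted p = 8.91e-08), EGLN3 by 3.93 ± 0.42, ADM by 3.54 ± 0.53, NDRG1 by 3.37 ± 0.51 and SLC16A3 by 3.26 ± 0.32. SLC2A1 was higher by 2.31 ± 0.27 (adjusted p = 1.62e-05) and HIF3A by 2.51 ± 0.62. EPAS1 was at 64.8 to 642 CPM in the 13 TE sums of days 11 to 14 and at 0 to 12.3 in the 8 EPI sums, with no overlap. The lower ones included STC1 (-5.19 ± 1.08), CA9, a carbonic anhydrase (-4.39 ± 0.71), PDK1 (-2.39 ± 0.44), PFKFB4 (-1.76 ± 0.34), HK2 (-1.33 ± 0.29) and GAPDH (-0.95 ± 0.13). STC1 was at 0 to 0.343 CPM in the TE sums of these embryos, so its fitted value is no measure of size. HIF1A was not called (0.36 ± 0.20).

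EXMC had 3 members higher and 6 lower than EPI of 27 in 7 embryos (30.7% of all genes called, 12.5% higher and 18.2% lower), a share near that of all genes. SLC16A3 (2.61 ± 0.40), TPI1 (0.94 ± 0.15) and ENO1 (0.60 ± 0.11) were higher, and CA9 (-6.48 ± 1.31), ENO2 (-3.70 ± 1.15), PFKFB4 (-2.40 ± 0.38), HK2 (-1.55 ± 0.35), PDK1 (-0.97 ± 0.33) and GAPDH (-0.41 ± 0.08) lower. CA9 was at 0 CPM in the EXMC sum of each of these embryos and ENO2 at 0 to 2.18, so their fitted values are no measure of size. PDK1 lost its call in 4 of 7 fits without 1 embryo, and PDK1 and GAPDH lost theirs without the embryo block. VE/YE had ADM higher (3.65 ± 0.55) and 6 members lower of 25 in 3 embryos (21.9% of all genes called, 10.3% higher and 11.5% lower), among them PFKFB4 (-2.90 ± 0.65) and HK1 (-2.57 ± 0.39). The VE/YE share of called members was also near that of all genes. HK1 was at 23.7 to 47.2 CPM in the 4 VE/YE sums of days 11 to 13, below the 120 to 281 of EPI.

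**Figure D5:**
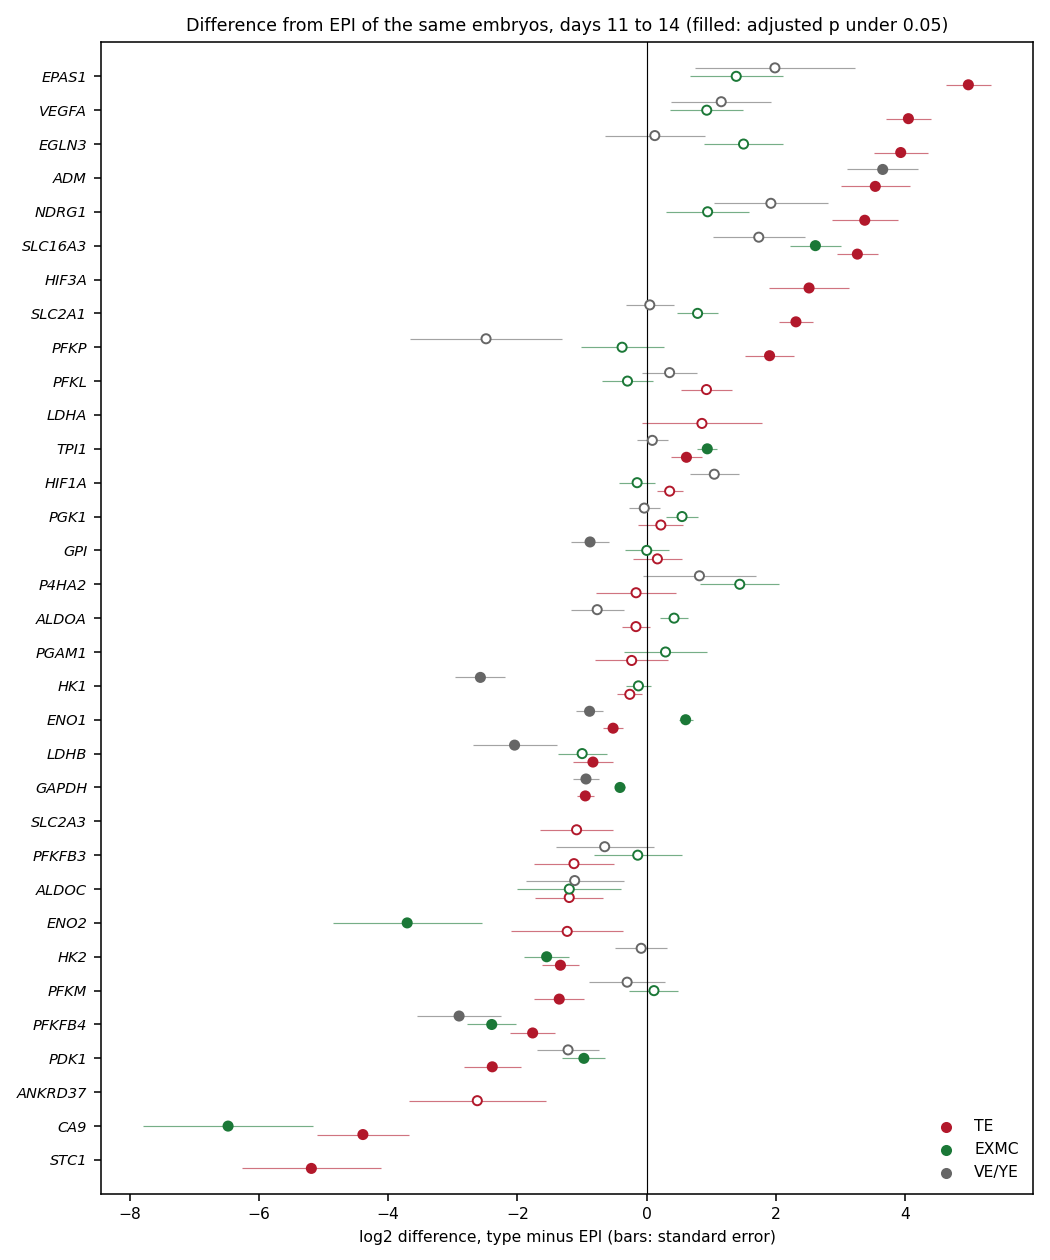
Log2 difference from EPI of the same embryos at days 11 to 14 (horizontal axis, bars 1 standard error) for TE, EXMC and VE/YE, filled where edgeR's adjusted p was under 0.05. In TE, EPAS1, VEGFA, EGLN3, ADM, NDRG1 and SLC16A3 lie more than 3 log2 units to the right, while STC1 and CA9 lie far to the left. The fitted values of STC1 in TE and of CA9 and ENO2 in EXMC have sums at or near 0 and are no measure of size.

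At day 16 the families were compared in the same 4 embryos. EXMC differed from EPI in 5 of 33 members (12.3% of all genes called, 7.46% higher and 4.88% lower): NDRG1 (3.96 ± 0.60 (adjusted p = 0.00105)), EPAS1 (3.88 ± 0.79) and P4HA2, a collagen prolyl hydroxylase (1.98 ± 0.41), were higher, and HK2 (-0.91 ± 0.23) and GAPDH (-0.27 ± 0.08) lower. The EXMC share was near that of all genes, and nothing particular to the members is read from it. VE/YE differed in 7 (12.2% of all genes called, 5.55% higher and 6.6% lower), with NDRG1 the most, at 272, 189, 280.0 and 314 CPM against 7.19, 3.04, 6.94 and 7.1 in EPI (5.45 ± 0.48 (adjusted p = 1.1e-13)). ADM was higher there by 1.00 ± 0.31 and HK1 lower (-2.10 ± 0.57). AM differed in 3 members (3.04% of all genes called, 2.14% higher), all higher: EPAS1 (6.38 ± 0.59 (adjusted p = 4.26e-05)), NDRG1 (3.97 ± 0.62) and SLC2A1 (1.03 ± 0.15). In Gast 0 of 32 were called by edgeR (3.11% of all genes; 7 with an unadjusted p under 0.05, DESeq2 4), and 1 without day-16 embryo 1. EXMC fell to 3 called members without day-16 embryo 1 or 2, and VE/YE to 4 without embryo 1 or 4. HK2 and GAPDH in EXMC lost the call in 3 of 4 fits without 1 embryo, and HK1 and ADM in VE/YE in 2 of 4. Without the embryo block VE/YE had 3, and those 4 calls and SLC2A1 in AM were lost.

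Other genes of the same pathways were read from lists without any of the 35, and EGLN1 is in both HIF lists. Of 23 tested further HIF targets in EXMC, 12 rose from day 14 to day 16, against the 2.25% of all genes, with a median of 1.75 against 0.19 over all genes. The largest were AK4, a mitochondrial adenylate kinase (6.04 ± 0.81 (adjusted p = 0.000263)), CXCR4, a chemokine receptor (3.87 ± 1.08 (adjusted p = 0.047)), and DDIT4, an inhibitor of mTOR signalling (3.76 ± 0.47 (adjusted p = 1.68e-05)). BNIP3, a mitophagy receptor (3.45 ± 0.47 (adjusted p = 0.000263)), FAM162A (2.24 ± 0.41 (adjusted p = 0.00209)) and the histone demethylase KDM3A (2.21 ± 0.61 (adjusted p = 0.0389)) followed. To day 17, 6 of the 23 fell (0.813% of all genes), among them AK4 (-3.73 ± 0.70), BNIP3 (-2.65 ± 0.45), FAM162A (-2.53 ± 0.41) and DDIT4 (-1.60 ± 0.42). In EPI, 5 of 24 rose from day 14 to day 16 (0.196% of all genes), DDIT4 by 4.01 ± 0.51 and FAM162A by 2.83 ± 0.54 among them, and 3 fell to day 17 (2.34%), AK4 with -2.57 ± 0.46. Of 18 tested further glycolysis and pyruvate genes in EXMC, ENO3, the muscle enolase (2.62 ± 0.69), and PGM1, which feeds glycogen-derived glucose into the pathway (2.37 ± 0.53), rose, 2 of 18 against 2.25%. MPC1, a subunit of the mitochondrial pyruvate carrier, fell by 2.50 on the log2 scale (1 of 18 against 1.53% of all genes) and then rose by 2.14 ± 0.49 to day 17 (1 of 18 against 0.911%). PGM1 also rose in EPI (2.48 ± 0.56). Of 11 tested HIF regulators 0 were called in EXMC from day 14 to day 16 by edgeR, and 0 had an unadjusted p under 0.05. Of 14 stress-response genes, DDIT3 alone rose (2.51 ± 0.73 (adjusted p = 0.0483)), 1 of 14 against 2.25%.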

How the data were processed

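Single cells of 21 embryos were sequenced from transcript 3' ends in pools of up to 96 barcodes. The deposited table holds whole-number counts per gene and cell. Per the submitters' processing notes reads were mapped with STAR; its version, the build, the counter and whether duplicate molecules were collapsed: not given in the sources used here. Amplification without such collapsing would make counts less precise than their size. Cells held 3376 to 483669 counts (median 61090). Cell types are the authors' deposited annotation. 3274 numbered identifiers were given RefSeq symbols (T2T-MFA8v1.1), and rows with numbered names hold 6.96% of counts. No genes of the mitochondrial genome were found among the rows, so that sign of RNA quality is not analysed here.

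Sums of counts over the cells of a family in an embryo (5 cells or more) were fitted with edgeR 4.0.16 in R 4.3.3 (filterByExpr, TMM scaling, robust quasi-likelihood test, Benjamini-Hochberg over all genes tested, called under 0.05), all days of a family in one fit; the scripts were tested on simulated data. Standard errors are the log2 change divided by the square root of F. CPM use TMM scaling of all sums together. Families were compared with the embryo as a block, since both sums come from that embryo. Replicate numbers name embryos and pair nothing across days, and nothing in the labels says which embryos share parents or a collection date, so the spread is that between these embryos. Alternatives were another scaling, no filter, other cell minimums, scaling without the listed genes, mean CPM per cell with limma 3.58.1, DESeq2 1.42.0, fewer days, developmental labels alone and leaving out each embryo; the fit of all EXMC and EPI sums and the counts of non-overlapping genes were added after seeing the data.

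Values by embryo are printed for the 12 members with the smallest p in EXMC from day 14 to day 16, for HIF1A, EPAS1, GAPDH, LDHA, LDHB, SLC2A1, SLC2A3, VEGFA and PDK1, and for members that a comparison calls; up to 6 called genes are named from each further list. The members and lists were chosen with earlier results of these data known. No set tests were run. Day contrasts were tested among days 14, 16 and 17, where both days had sums of at least 2 embryos, beside the trends of days 11 to 14.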

Additional observations from a re-analysis of the deposited data

Results flagged for a closer look

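Of 51 groups of 4 embryos examined for 19 genes, 4 held a value whose gap to the nearest other exceeded Dixon's 95% critical value; chance gives about 1 in 20. NDRG1 in EPI was at 3.04 CPM in day-16 embryo 2 against 6.94 to 7.19 in the others. GPI in EXMC was at 323.0 CPM in day-16 embryo 4 against 387 to 389. SLC2A3 in EXMC was at 15.7 CPM in day-16 embryo 4 against 1.12 to 3.07. VEGFA in EPI was at 75.2 CPM in day-16 embryo 3 against 2.03 to 8.76.

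The change of ENO1 from day 14 to day 16 had an EXMC minus EPI value of -1.22 on the log2 scale in the test of the difference. Only 1 day-14 embryo holds both families. The call given above was lost under 3 of 6 other settings and without day-17 embryo 1.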

How the results depend on the processing

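Numbers of members called moved with the setting, and so did the numbers of all genes called. DESeq2 called 16 for EXMC from day 14 to day 16, 13 from day 16 to day 17 and 2 from day 14 to day 17, 13, 20 and 5 for the same EPI comparisons, 3 for TE and 12 for Gast. DESeq2 also called 2 for the EXMC trend, 5 for the TE trend and 4 for Gast against EPI at day 16. Without the filter on low counts there were 12 for EXMC to day 17, 1 for EXMC from day 14 to day 17, 4 for EPI from day 14 to day 17, 3 for TE, 2 for the EXMC trend and 1 for the TE trend. Without it there were also 8 for EXMC, 5 for AM and 1 for Gast against EPI at day 16. With sums of at least 3 cells EPI had 3 from day 14 to day 16 and 0 from day 14 to day 17, and the difference in change from day 14 to day 16 had 0. All genes called went from 100 to 55, 358 to 258 and 68 to 11 in these fits. With at least 10 cells TE had 1 and Gast 3, where all genes called went from 476 to 58 and from 61 to 25. Mean CPM per cell with limma gave 5, 7 and 1 for the 3 EPI comparisons, 5 for TE and 11 for Gast. Over all genes limma called 72, 486 and 415 for EPI, 1057 for TE and 170 for Gast. Developmental labels alone gave 0 for EXMC to day 17 and no value for day-17 EPI. With no replicate block VE/YE against EPI at day 16 had 3, and the difference in change from day 14 to day 16 had 0, also with all EXMC and EPI sums; no other count of the block comparisons moved by over 1.5 times. Without the block, all genes called for VE/YE against EPI at day 16 went from 1623 to 1045. For the difference in change to day 16 they went from 68 to 2, or to 35 with all EXMC and EPI sums. No paired analysis was possible because replicate numbers do not pair embryos of different days.

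Leaving out 1 embryo gave 6 to 11 for EXMC to day 16, 4 to 9 to day 17, 0 to 7, 1 to 13 and 0 to 4 for the 3 EPI comparisons, 0 to 1 for TE and 0 to 11 for Gast. It gave 0 to 1 for the EXMC and TE trends, for Gast against EPI at day 16 and for both differences in change, 3 to 6 for EXMC and 4 to 7 for VE/YE against EPI at day 16. All genes called moved too, to 135 to 555 and 59 to 291 for EXMC to days 16 and 17. They ran from 17 to 92, 74 to 546 and 57 to 517 for EPI, 185 to 801 for TE and 16 to 177 for Gast. Against EPI at day 16 they ran from 1012 to 1598 for EXMC and 891 to 1499 for VE/YE.

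VEGFA, which was not called in the day comparisons of EXMC and EPI, reversed sign in some of them. It was -0.062 in EXMC to day 16 and -0.23 in EPI to day 16 with mean CPM per cell. In EXMC to day 17 it was -0.049 without day-16 embryo 2 (up to 0.27 without others). In EPI to day 16 it was -0.88 without day-16 embryo 3 (up to 1.37 without others). No called member reversed. The cause of these shifts was not tested. Another scaling moved the median of all genes by 0.12 for TE from day 14 to day 17, -0.13 for TE against EPI and -0.11 for the difference in change to day 17.

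Small groups limit these results: day 14 has 2 EPI and 2 Gast sums, day 17 has 2 EPI sums. Genes near 0 counts on a day give no reliable fold.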
